A study of Mus musculus with 18 samples.

Results

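Genes of fatty acid oxidation, ketone body synthesis and their regulation by peroxisome proliferator-activated receptors (PPARs) were examined in mouse colon crypts. The members were the 37 rows of the deposited gene count table whose symbol was on a list of beta-oxidation enzymes, ketone body enzymes, PPARs and PPAR targets, out of 24047 genes in all. Every one of the 37 symbols was found in the table. The list goes by gene identity, but it was drawn up with earlier results of these data known.

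Fatty acids enter oxidation when acyl-CoA synthetases join them to coenzyme A. The carnitine shuttle then carries long chains into mitochondria, where acyl-CoA dehydrogenases, hydratases, hydroxyacyl-CoA dehydrogenases and thiolases shorten them in repeated cycles and pass electrons to the respiratory chain through the electron transfer flavoprotein. Peroxisomes carry out a parallel pathway for very long and branched chains, and acetyl-CoA that is not burnt can be turned into ketone bodies. Colonocytes are known for their use of butyrate, a bacterial fermentation product, as a fuel, and PPARα and PPARγ are nuclear receptors that fatty acids activate.

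The study asked how the endoplasmic reticulum stress sensor ERN2 and the gut microbiota shape the colonic epithelium. All mice were C57BL/6, either WT or Ern2-/-, and each genotype was examined in 3 microbial states with 3 libraries per group, 18 in all. CONV mice were raised conventionally under specific pathogen-free (SPF) conditions. GF marks the germ-free state, and COLONIZED marks mice born germ free, then given cecal homogenate of WT SPF donors and examined after 14 days. The groups are named CONV-WT, GF-WT, COLONIZED-WT, CONV-Ern2-/-, GF-Ern2-/- and COLONIZED-Ern2-/-, as the labels give them. Ern2-/- names an allele of the whole mouse, so that no comparison of genotype labels isolates the epithelium. The labels give no age, and they do not say whether crypts of several mice were pooled in a library, although the study shows RNA-seq values of CONV colon epithelium as individual mice. The p-values measure the spread between these libraries.

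Depth per library lay between 5.87 and 23.2, in units of 1e6 counts, and the 2 lowest group minima were in CONV-Ern2-/- and CONV-WT. Levels are given as normalized counts, that is, counts divided by a size factor per library. The targeted gene went against the genotype label in part of the libraries. Ern2 was 1909 to 3100 normalized counts in the WT libraries, 998, 1622 and 1487 in CONV-Ern2-/- replicates 1, 2 and 3, 2877, 386 and 3336 in GF-Ern2-/-, and 2567, 1325 and 1885 in COLONIZED-Ern2-/-. Group names with Ern2-/- below therefore mean the libraries labelled so, and a gene count does not show which exons were deleted. Epithelial markers (Epcam, Cdh1, Krt8, Krt18, Krt19, Vil1 and Cdx2) were high throughout, with a summed level of 144852 to 213358. Adipocyte markers, which would bring their own PPARγ and lipid genes, summed to 8.49 to 430, and only 1 of 7 had a count in every library.

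A pair of libraries stood apart from their groups in cell markers. CONV-WT replicate 3 had a summed surface colonocyte level (Slc26a3, Car4, Aqp8, Krt20, Guca2a, Car1 and Slc20a1) of 301712, against 41128 and 74129 in replicates 1 and 2, and a summed goblet level of 76840 against 580734 and 500499. Most of the surface gap was the carbonic anhydrase Car1, at 269449 against 22612 and 53108. The other 6 genes summed to 32262 against 18516 and 21021, with Guca2a lower in replicate 3 (8444 against 11141 and 12813). GF-Ern2-/- replicate 2 had a surface colonocyte sum of 464245 against 60266 and 87866, of which 374772, 15937 and 40171 were Car1. Without Car1 the sum was 89473 against 44329 and 47695. Its small intestine markers (Apoa4, Apoc3, Fabp6, Lct, Sis and Mttp) summed to 6380, the highest of 18 libraries, against 726 and 1760. Counts of members called are given with and without these libraries where the counts differ, and so are values of some members. Marker calls, interaction terms, other pathway genes and the remaining member values are given with all libraries only. In crypt preparations of many cells, fewer cells of a type and less RNA per cell cannot be told apart.

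PPARs and the liver and gut factor HNF4A recognise a direct repeat of AGGTCA with a spacer of 1 base. RefSeq promoter windows of 300 bases on GRCm38.p6, from 250 bases before to 50 bases after the gene start, were found for 31 members, and 35 windows were searched on both strands. Allowing up to 2 mismatches over the 12 fixed letters, 6 members held a match, Cd36, Fabp1, Plin2, Slc25a20, Etfa and Echs1, which is 17.1% of the member windows against 3.86% of all 32851 windows. No member window held the motif without mismatch, and 13 of all windows did. The windows of Slc25a20 and Plin2, called in more than 1 comparison below, and of Fabp1, which held the closest match, are shown 5′ to 3′ with the match in capitals. The match lies at 7 to 19 from the gene start in Slc25a20, at -225 to -213 in Plin2 and at -67 to -55 in Fabp1. The windows are chr9:108661886-108662185 (plus strand), chr4:86670010-86670309 (minus strand) and chr6:71199629-71199928 (plus strand), in that order.
Slc25a20: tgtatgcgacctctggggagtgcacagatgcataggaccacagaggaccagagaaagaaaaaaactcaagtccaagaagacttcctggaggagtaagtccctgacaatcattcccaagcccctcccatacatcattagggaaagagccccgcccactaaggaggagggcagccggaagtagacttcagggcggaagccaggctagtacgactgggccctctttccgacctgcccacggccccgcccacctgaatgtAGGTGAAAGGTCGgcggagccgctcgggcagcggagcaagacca
Plin2: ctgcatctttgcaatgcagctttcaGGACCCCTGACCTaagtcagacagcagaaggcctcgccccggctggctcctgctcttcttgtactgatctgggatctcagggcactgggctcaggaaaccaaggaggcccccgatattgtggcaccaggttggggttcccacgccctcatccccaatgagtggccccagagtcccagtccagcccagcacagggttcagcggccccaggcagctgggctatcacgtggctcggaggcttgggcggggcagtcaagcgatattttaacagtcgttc
Fabp1: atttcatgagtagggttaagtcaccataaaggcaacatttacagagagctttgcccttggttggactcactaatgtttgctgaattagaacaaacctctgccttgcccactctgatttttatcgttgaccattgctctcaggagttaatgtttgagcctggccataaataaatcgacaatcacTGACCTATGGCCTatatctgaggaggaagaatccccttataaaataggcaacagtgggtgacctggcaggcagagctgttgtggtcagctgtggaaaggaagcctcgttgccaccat
The match in Slc25a20 reads on the strand of the gene with 2 mismatches, the match in Plin2 on the opposite strand with 2, and the match in Fabp1 on the opposite strand with 1. A match is a description of letters and not a shown binding site.

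Per kilobase of transcript, the most abundant members were Fabp2, the intestinal fatty acid binding protein, at a mean of 9067 normalized counts, Hadh, the mitochondrial hydroxyacyl-CoA dehydrogenase, at 4939, Etfb at 3933 and Acads at 3347. The least abundant were Angptl4, a secreted inhibitor of lipoprotein lipase, at 28.3 and Cd36, a fatty acid transporter of many other tissues, at 0.5. Cd36 was counted in 12 of 18 libraries and never exceeded 5.93 normalized counts, so that it was at the limit of detection. All the other 36 members had a count in every library.

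The members differed widely in how much their level varied. Fabp1, the liver-type fatty acid binding protein, ranged from 2.24 to 283 normalized counts, Acaa1b from 36.1 to 1419, Angptl4 from 11.3 to 385, Pdk4 from 43.4 to 820 and Fabp2 from 2083 to 33428. At the other end, the highest library exceeded the lowest 1.58-fold for Hsd17b10, 1.62-fold for Bdh1, 1.66-fold for Acadvl and 1.69-fold for Decr1. Across the 18 libraries, the median Spearman correlation over the 630 pairs of 36 members was 0.48 for levels and 0.55 for deviations from group means, and 85.9% of the latter were above 0. The points share libraries, depth and cell makeup, so these are descriptions. Mean levels were highest in GF-Ern2-/- for 21 members and in CONV-Ern2-/- for 14, and lowest in CONV-WT for 16. Without GF-Ern2-/- replicate 2, described above, they were highest in GF-Ern2-/- for 6 members, in CONV-Ern2-/- for 22 and in GF-WT for 5, and lowest in CONV-WT for 16.

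**Figure D1:**
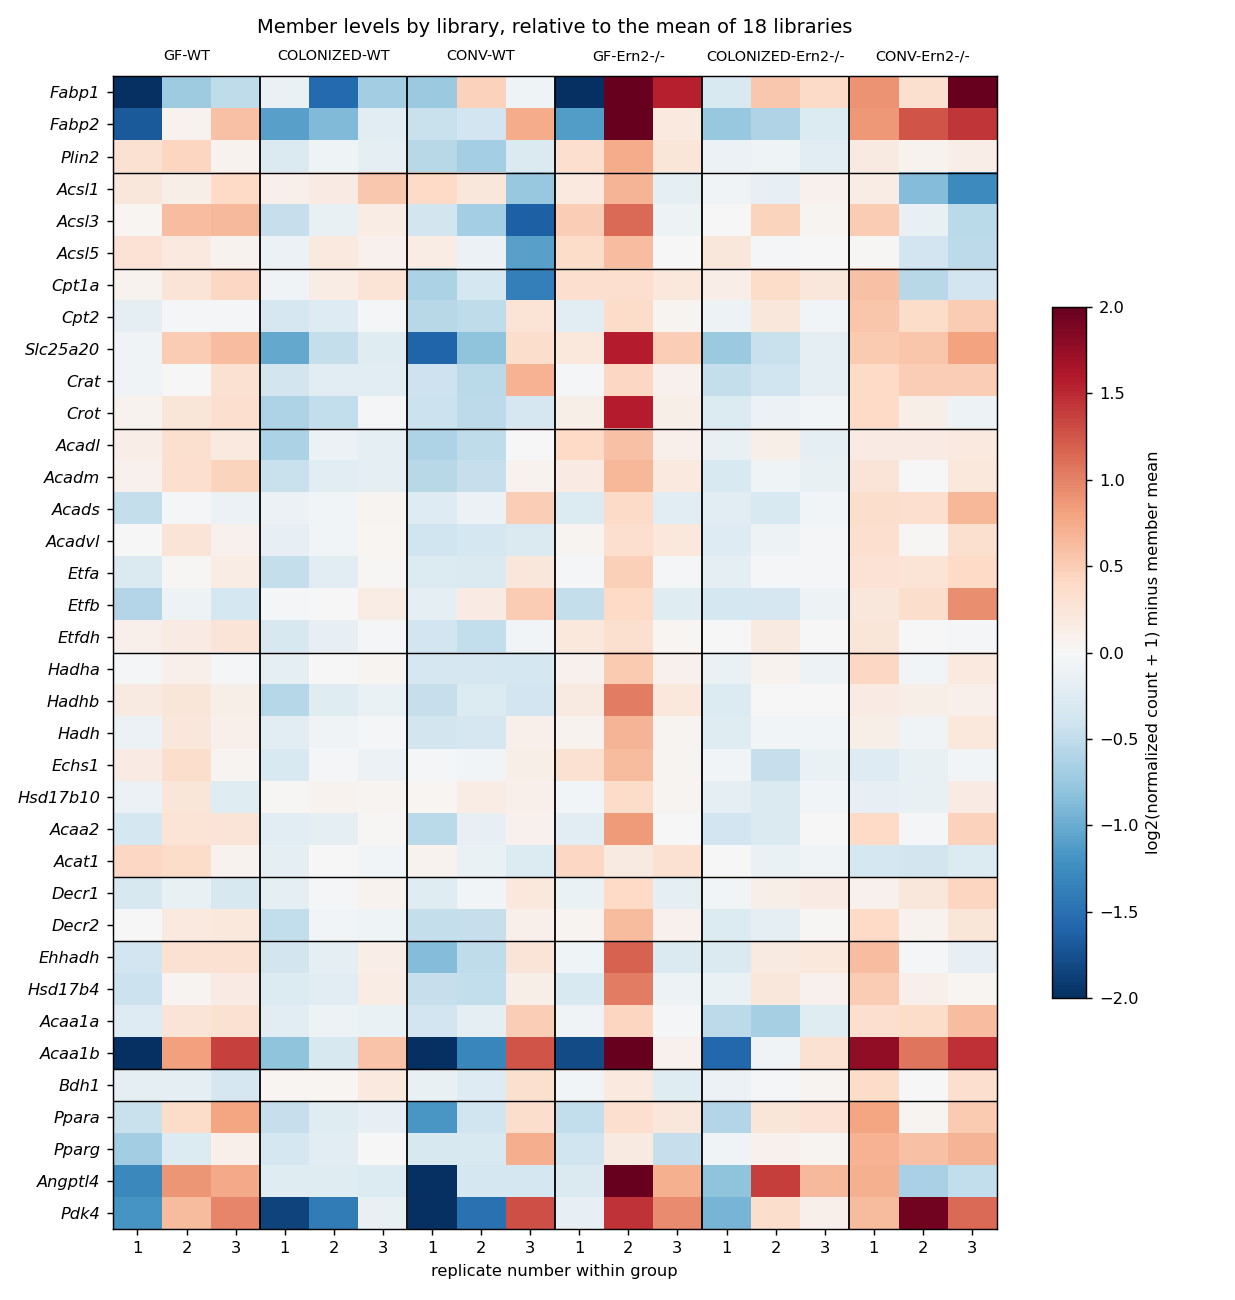
Levels of the 36 members with a count in every library, as log2(normalized count + 1) minus the member's mean over 18 libraries; columns are libraries by group and replicate number, rows are ordered by role with lines between roles, and colours are limited to 2 either way. GF-Ern2-/- replicate 2 is highest of the 18 libraries for 23 members, and CONV-WT replicate 1 is lowest for 10.

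Much of this shared variation followed single libraries. GF-Ern2-/- replicate 2 was the highest library for 23 of the 36 members, with a median deviation over members of 0.63 on the log2 scale, against -0.03 and 0.07 in replicates 1 and 3. In CONV-WT the median deviation was -0.42, -0.35 and 0.10 in replicates 1, 2 and 3, and in CONV-Ern2-/- it was 0.38, 0.06 and 0.23. Over the 18 libraries the median deviation had a Spearman correlation of 0.80 with the summed surface colonocyte level and of -0.69 with the summed goblet level, and it was 0.91 with the 6 surface genes other than Car1, given as a description of libraries that share groups. The part of cell makeup in the results below was not tested.

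**Figure D2:**
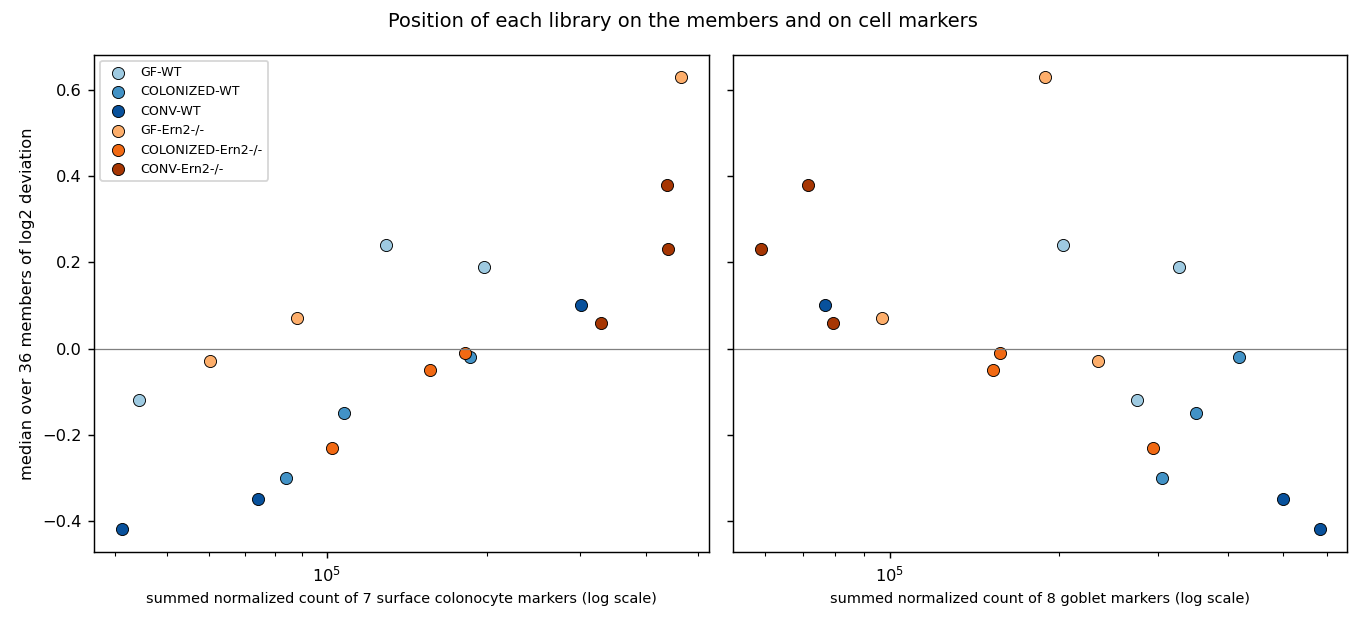
Median log2 deviation of 36 members in each of 18 libraries against the summed normalized count of surface colonocyte markers (left) and goblet markers (right), with log x axes and points coloured by group. Libraries with a higher surface colonocyte sum have higher member levels (Spearman 0.80), and CONV-WT replicates 1 and 2 lie at the low end.

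Microbes were compared with the germ-free state first in WT mice. In CONV-WT against GF-WT, 7 members fell and 0 rose at a DESeq2 adjusted p under 0.01 (18.9% of members), where 5.28% of all 13872 genes tested fell, 5.68% rose and 11.0% changed in either direction. At an unadjusted p under 0.05, DESeq2 gave 12 members (30.4% of all genes). The members that fell were Plin2, Acsl3, Cpt1a, Crot, Acadvl, Hadha and Hadhb. The median log2 fold change was -0.37 over members and 0.00 over all genes tested, and 28 of 37 members were negative. The groups did not overlap, with CONV-WT lower, for 10 members, against 18.1% of all genes. The edgeR quasi-likelihood test called 0 members, against 0.175% of all genes, and gave 9 at an unadjusted p under 0.05 (28.7% of all genes). The count rested on each library in turn. It was 14 without CONV-WT replicate 3 (20.8% of all genes), the library with a high surface colonocyte sum, and 0 without GF-WT replicate 2 (5.10%). It was 1 without any other library, that is GF-WT replicate 1 (5.87%) or 3 (5.09%) or CONV-WT replicate 1 (6.77%) or 2 (4.31%). Cell and position markers moved in the same comparison. DESeq2 called 3 of 7 surface colonocyte genes lower (Car4 at -3.11), the small intestine gene Sis at -4.81 and 3 of 6 distal Hox genes (Hoxd13 at -7.79), which mark position along the gut. Of the other lists, 2 of 7 mesenchymal and muscle genes (Des at 4.77) and 2 of 3 tuft genes were called higher, 1 of 6 stem and proliferation genes higher, and of 8 goblet genes Spdef higher at 1.79 and 2 lower (Zg16 at -3.60). Small intestine sums were 147 to 155 in CONV-WT and 332 to 1642 in GF-WT, and distal Hox sums 794 to 3037 and 4321 to 8433, without overlap. Mesenchymal and muscle sums were 27.3 to 267 and 4.86 to 15.4, also without overlap. The part of these markers in the 7 calls was not tested.

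Without CONV-WT replicate 3, the members that fell were Plin2, Acsl3, Cpt1a, Cpt2, Slc25a20, Crat, Crot, Acadl, Acadm, Acadvl, Etfdh, Hadhb, Decr2 and Pdk4, where 10.3% of all genes tested fell. The median over members was then -0.45. Slc25a20 had a log2 fold change of -1.54 ± 0.30 (SE) and a DESeq2 adjusted p of 4.7e-06 in that fit, and Acadl, the long-chain acyl-CoA dehydrogenase, had -0.79 ± 0.13 and 9.74e-08.

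In COLONIZED-WT against GF-WT, 4 members fell, Plin2, Slc25a20, Acadm and Hadhb, and 0 rose. This is 10.8% of members, near the 8.97% of all genes tested that fell in this comparison, where 9.35% rose and 18.3% changed in either direction. Unadjusted, 15 members had a DESeq2 p under 0.05 (39.2% of all genes). The median was -0.25 over members and -0.01 over all genes. With edgeR 0 members were called (4.94% of all genes) and 14 had an unadjusted p under 0.05 (41.8% of all genes). Leaving out 1 library gave 9 calls without GF-WT replicate 1 (20.2% of all genes) and 0 without COLONIZED-WT replicate 1 (9.22%). It gave 2 without COLONIZED-WT replicate 2 (14.1%). Without GF-WT replicate 2 there was 1 call (13.5%), with 1 member higher in place of those lower. Of the markers, 4 of 8 goblet genes were called higher (Muc2 at 1.55) and 2 lower (Zg16 at -2.31), and Car4 (-2.51), Sis (-3.88) and Hoxd13 (-3.37) were called lower. All 3 tuft genes and 2 of 6 stem and proliferation genes were called higher, with sums of 1408 to 2521 against 673 to 921 and of 11954 to 13226 against 5179 to 9089, without overlap. Small intestine sums were 151 to 202 in COLONIZED-WT, below all of GF-WT, and distal Hox sums of 2625 to 4674 overlapped GF-WT. Their part in the 4 calls was not tested. This comparison and CONV-WT against GF-WT share the GF-WT libraries, so their values are only set side by side.

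The same comparisons were made among libraries labelled Ern2-/-. For CONV-Ern2-/- against GF-Ern2-/-, DESeq2 called 0 members where 4.34% of all genes were called (1.57% higher and 2.77% lower), and 6 members had an unadjusted p under 0.05 (19.6% of all genes). The edgeR test called 0 members there (0.0325% of all genes), with 4 at an unadjusted p under 0.05 (19.8% of all genes). In COLONIZED-Ern2-/- against GF-Ern2-/-, Slc25a20 fell and no other member was called, where 3.57% of all genes tested fell, 3.60% rose and 7.17% changed. Unadjusted, 12 members had a DESeq2 p under 0.05, all lower (25.1% of all genes), and edgeR called 0 members (0.216% of all genes), with 10 under 0.05 (26.2% of all genes). The median over members was -0.11 in the former and -0.40 in the latter, and in the latter 34 of 37 members were negative. With GF-Ern2-/- replicate 2 left out, the former comparison had 5 calls, Fabp2, Acads, Acaa1b and Pparg higher and Acat1 lower, where 3.66% of all genes rose and 3.48% fell. Without CONV-Ern2-/- replicate 1 it had 2, Acsl1 and Cpt1a, both lower, near the 3.71% of all genes that fell. Of the markers in this comparison, 4 of 8 goblet genes (Zg16 at -2.91), Sis (-3.45) and 2 of 6 distal Hox genes (Hoxd13 at -9.27) were called lower. Called higher were 2 of 4 enteroendocrine genes (Chgb at 1.92), Dclk1 (1.51) and the mesenchymal gene Col3a1 (3.14). Their part was not tested. The latter had 2 calls without GF-Ern2-/- replicate 2, Slc25a20 lower and Pparg higher, below the share of all genes (5.34% higher and 5.08% lower), and its median moved to -0.11. It had 3 without GF-Ern2-/- replicate 1 (5.62% of all genes). It had 0 without COLONIZED-Ern2-/- replicate 1 (4.77%), 2 (3.42%) or 3 (4.19%). In the latter comparison DESeq2 also called 4 of 7 surface colonocyte genes lower (Aqp8 at -4.57), Sis lower at -2.43, and 3 of 8 goblet genes higher (Muc2 at 1.75) with 1 lower. Called too were 2 of 4 enteroendocrine genes (Chgb at 2.82), 2 of 6 stem and proliferation genes (Mki67 at 1.36) and the tuft gene Dclk1 (1.53), all higher, and the endothelial gene Pecam1, lower at -2.24. Enteroendocrine sums were 1892 to 6063 against 692 to 1014, and stem and proliferation sums 12500 to 15622 against 4342 to 8596. Small intestine sums were 265 to 395 in COLONIZED-Ern2-/- and 726 to 6380 in GF-Ern2-/-, without overlap. The part of these markers in the result for Slc25a20 was not tested. Without the libraries labelled Ern2-/- that had Ern2 at the WT level, an alternative chosen after seeing the data, 12 members were called lower, where 5.56% of all genes fell. GF-Ern2-/- was then replicate 2 alone.

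**Figure D3:**
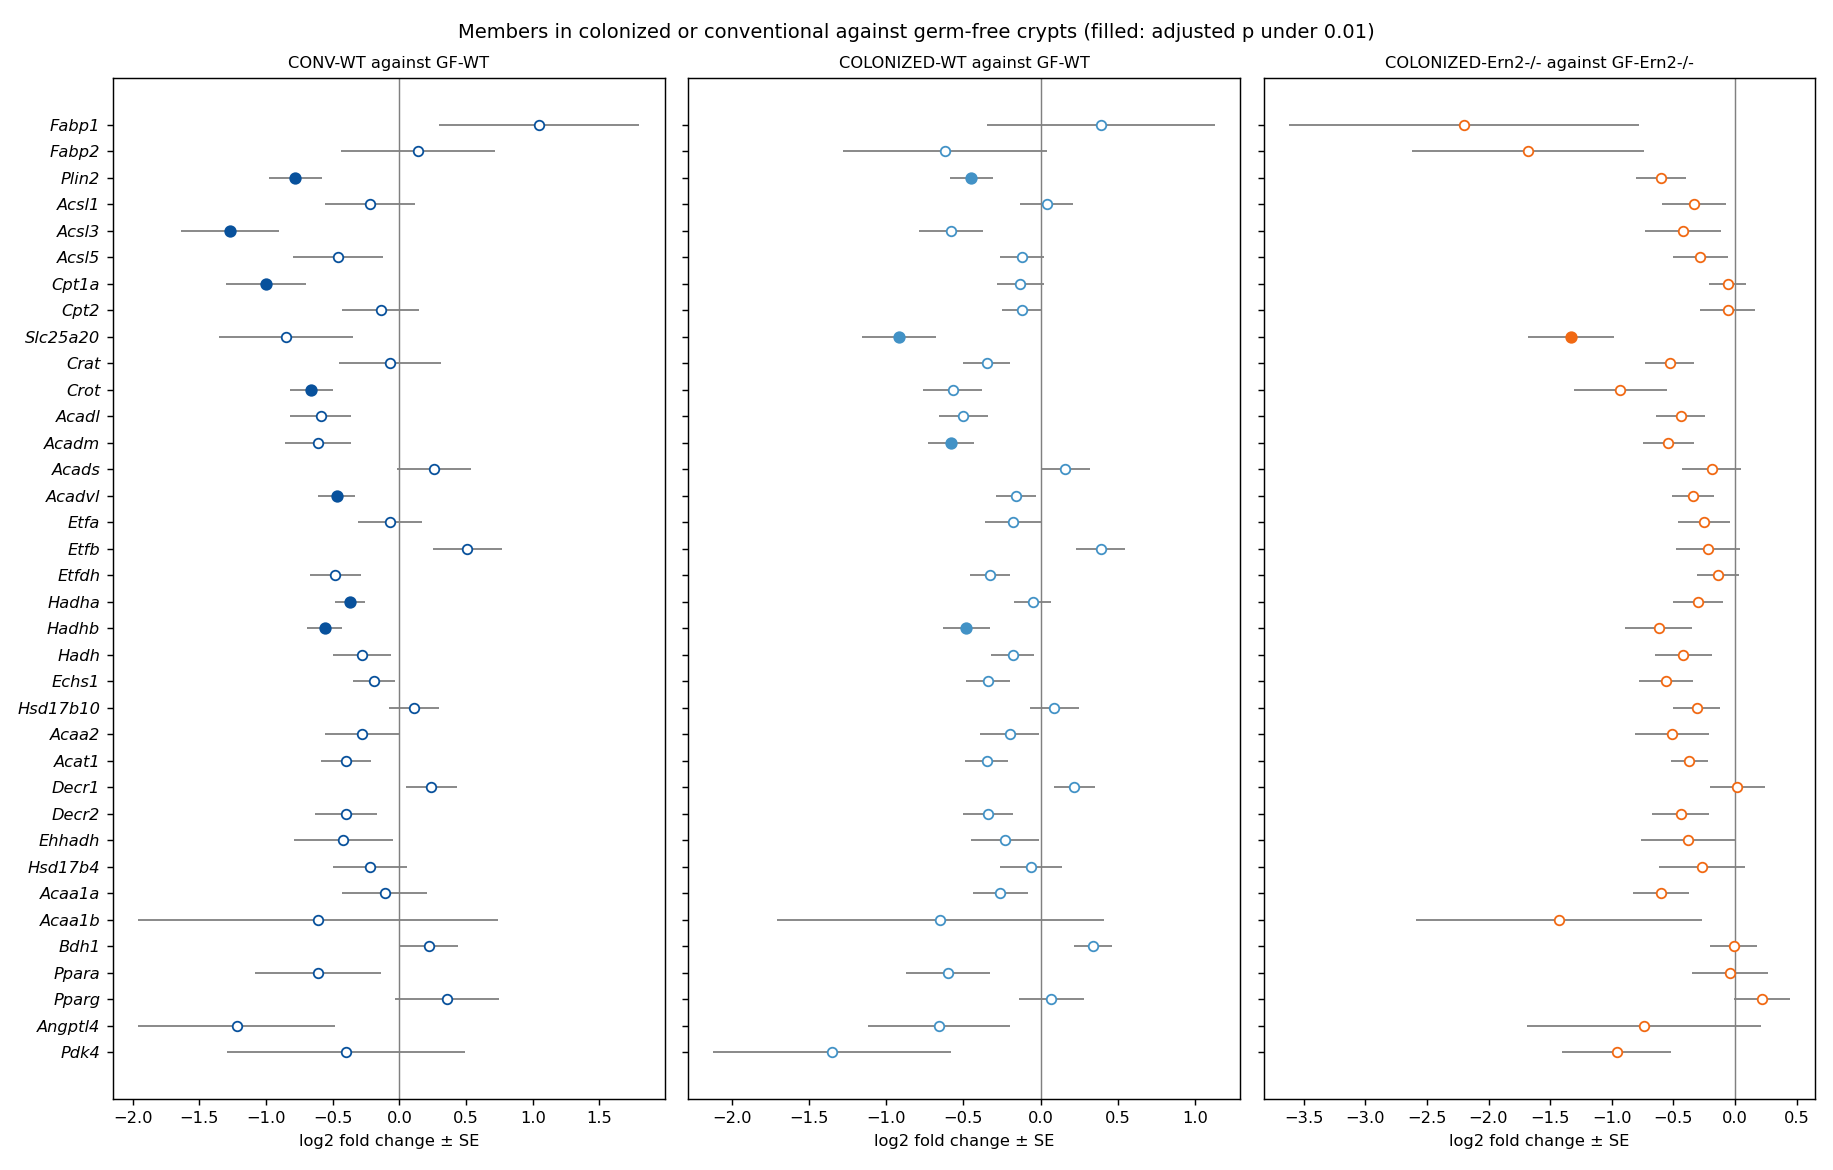
DESeq2 log2 fold change ± SE of 36 members (Cd36 left out) in CONV-WT against GF-WT, COLONIZED-WT against GF-WT and COLONIZED-Ern2-/- against GF-Ern2-/-, on x axes that differ between panels; filled points have an adjusted p under 0.01. Filled points number 7, 4 and 1, all below 0, and the comparisons of WT share their GF-WT libraries.

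In the main DESeq2 fits, the most members were called between conventional and colonized libraries labelled Ern2-/-. Without CONV-WT replicate 3 more were called elsewhere, 14 in CONV-WT against GF-WT and 15 in CONV-Ern2-/- against CONV-WT. In CONV-Ern2-/- against COLONIZED-Ern2-/-, 9 members rose and 0 fell (24.3% of members), where 4.86% of all 13098 genes tested rose, 3.73% fell and 8.59% changed. Unadjusted, 16 members had a DESeq2 p under 0.05, all higher (30.2% of all genes). The members were Fabp2, Slc25a20, Crat, Acads, Etfb, Acaa1a, Acaa1b, Pparg and Pdk4. The median was 0.30 over members and -0.01 over all genes, and 31 of 37 were positive. CONV-Ern2-/- lay above COLONIZED-Ern2-/- without overlap for 17 members, against 17.7% of all genes. The edgeR test called 1 member, Fabp2 (0.282% of all genes), and 15 members had an unadjusted p under 0.05 (31.4% of all genes). In 1 fit of all 18 libraries, Acaa1a alone was called (3.32% of all genes). Fits without 1 library gave 5 to 11 calls. There were 5 without COLONIZED-Ern2-/- replicate 1 (3.29% of all genes) or 3 (4.94%) and 6 without CONV-Ern2-/- replicate 3 (4.02%). Without CONV-Ern2-/- replicate 1 there were 8 members higher and 3 lower (Acsl1, Acsl5 and Cpt1a), where 9.95% of all genes rose and 8.42% fell. Surface colonocyte sums were 327839 to 439119 in CONV-Ern2-/- and 102192 to 181912 in COLONIZED-Ern2-/-, and goblet sums 58937 to 79191 and 152885 to 293860, so these groups did not overlap in either marker list. All 7 surface colonocyte genes were called higher, and 4 of 8 goblet genes and the enteroendocrine gene Pyy (-1.41) lower. Stem and proliferation sums were 7011 to 10760 in CONV-Ern2-/- and 12500 to 15622 in COLONIZED-Ern2-/-, also without overlap, with 0 of 6 genes called. Markers of cells outside the epithelium were low but also separated the groups, with macrophage sums of 66.7 to 118 and 27 to 45.1, endothelial sums of 51.1 to 119 and 23.1 to 27, and mesenchymal and muscle sums of 28.2 to 193 and 10.7 to 21.1. Adipocyte sums of 227 to 430 and 49.8 to 110 came mostly from the lipid droplet gene Cidec (221, 300 and 417 against 42.7, 96.3 and 98.3), while Adipoq was 0, 6.67 and 2.76 against 0 in each COLONIZED-Ern2-/- library. The part of these markers in the 9 calls was not tested.

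The corresponding WT comparison, CONV-WT against COLONIZED-WT, had 0 members called by DESeq2, where 0.119% of all genes were called (0.0446% higher and 0.0743% lower), and 4 at an unadjusted p under 0.05 (8.98% of all genes). The edgeR test called 0 members and 0 genes, with 1 member at an unadjusted p under 0.05 (7.11% of all genes). Groups did not overlap for 1 member higher and 4 lower in CONV-WT, against 8.52% and 7.88% of all genes. Without CONV-WT replicate 3 it had 2, Cpt1a and Acaa1b, both lower, where 0.822% of all genes rose and 0.766% fell. Their log2 fold changes were then -0.63 ± 0.15 and -1.72 ± 0.43. The CONV-WT libraries that remained had surface colonocyte sums of 41128 and 74129, below the 83797 to 186452 of COLONIZED-WT. Goblet sums of 580734 and 500499 were above the 304586 to 418022 of COLONIZED-WT. The part of these markers was not tested.

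Genotype labels were compared within each microbial state. Between CONV-Ern2-/- and CONV-WT, DESeq2 called 0 members where 3.03% of all genes were called (1.08% higher and 1.96% lower), and 10 members had an unadjusted p under 0.05, all of them higher (17.3% of all genes). The edgeR test called 0 members and 0 genes, with 10 members at an unadjusted p under 0.05 (15.4% of all genes). The median over members was 0.49, against 0.02 over all genes, and 31 of 37 members were positive. Without CONV-WT replicate 1 (1.19% of all genes) or 2 (0.989%), 0 members were called. The same held without CONV-Ern2-/- replicate 1 (1.37%), 2 (2.52%) or 3 (1.28%). Only without CONV-WT replicate 3, the library with a high surface colonocyte sum, were members called. There 15 members rose, where 7.17% of all genes rose, and the median was 0.63. These were Fabp2, Plin2, Cpt2, Slc25a20, Crat, Acadl, Acadm, Acads, Etfa, Decr2, Acaa1a, Acaa1b, Ppara, Pparg and Pdk4. In that fit, which compares 3 libraries with 2, Acaa1b had a log2 fold change of 3.25 ± 0.38, Pdk4 3.19 ± 0.44 and Slc25a20 1.79 ± 0.28. The WT libraries that remained had goblet sums of 580734 and 500499 and surface sums of 41128 and 74129, against the CONV-Ern2-/- ranges above. With all libraries, DESeq2 called 4 of 7 surface colonocyte genes higher (Slc20a1 at 2.31). Called lower were 4 of 8 goblet genes (Clca3 at -3.83) and the stem and proliferation gene Axin2 (-1.13). The part of these markers was not tested.

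In GF-Ern2-/- against GF-WT, DESeq2 called 0 members where 0.0350% of all genes were called (0.0117% higher and 0.0233% lower). By DESeq2 1 member, Fabp1, had an unadjusted p under 0.05 (1.48% of all genes), and edgeR called 0, with 1 under 0.05 (1.54% of all genes). The median over members was 0.19, and it was -0.03 without GF-Ern2-/- replicate 2. Without GF-Ern2-/- replicate 1, Fabp1 was called higher, where 0.0555% of all genes were. In COLONIZED-Ern2-/- against COLONIZED-WT, DESeq2 called 0 members where 1.37% of all genes were called (0.518% higher and 0.853% lower), and 6 had an unadjusted p under 0.05 (22.3% of all genes). The edgeR test called 0 members (0.00786% of all genes), with 4 under 0.05 (21.9% of all genes). By DESeq2 1 member, Pdk4, was called higher without COLONIZED-WT replicate 3 (0.373% of all genes) and 2, Ppara and Angptl4, without COLONIZED-Ern2-/- replicate 1 (3.01% of all genes).

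The difference between genotype labels in the response to microbes was tested by interaction terms on 12 libraries. For CONV against GF, DESeq2 called 0 members where 0.177% of all genes were called, and 1, Acadvl, had an unadjusted p under 0.05 (8.72% of all genes), while edgeR called 0, with 0 under 0.05 (7.42% of all genes). For COLONIZED against GF, DESeq2 called 0 members where 0.0280% of all genes were called, and 0 had an unadjusted p under 0.05 (5.76% of all genes), while edgeR called 0, with 0 under 0.05 (7.26% of all genes). The interaction estimate for Ppara was 1.02 ± 0.59 for CONV and 0.57 ± 0.46 for COLONIZED, and for Slc25a20 it was 0.60 ± 0.66 and -0.40 ± 0.47, so the intervals were wide. A difference between WT and Ern2-/- in how members responded was therefore not detected with 3 libraries per group.

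**Figure D4:**
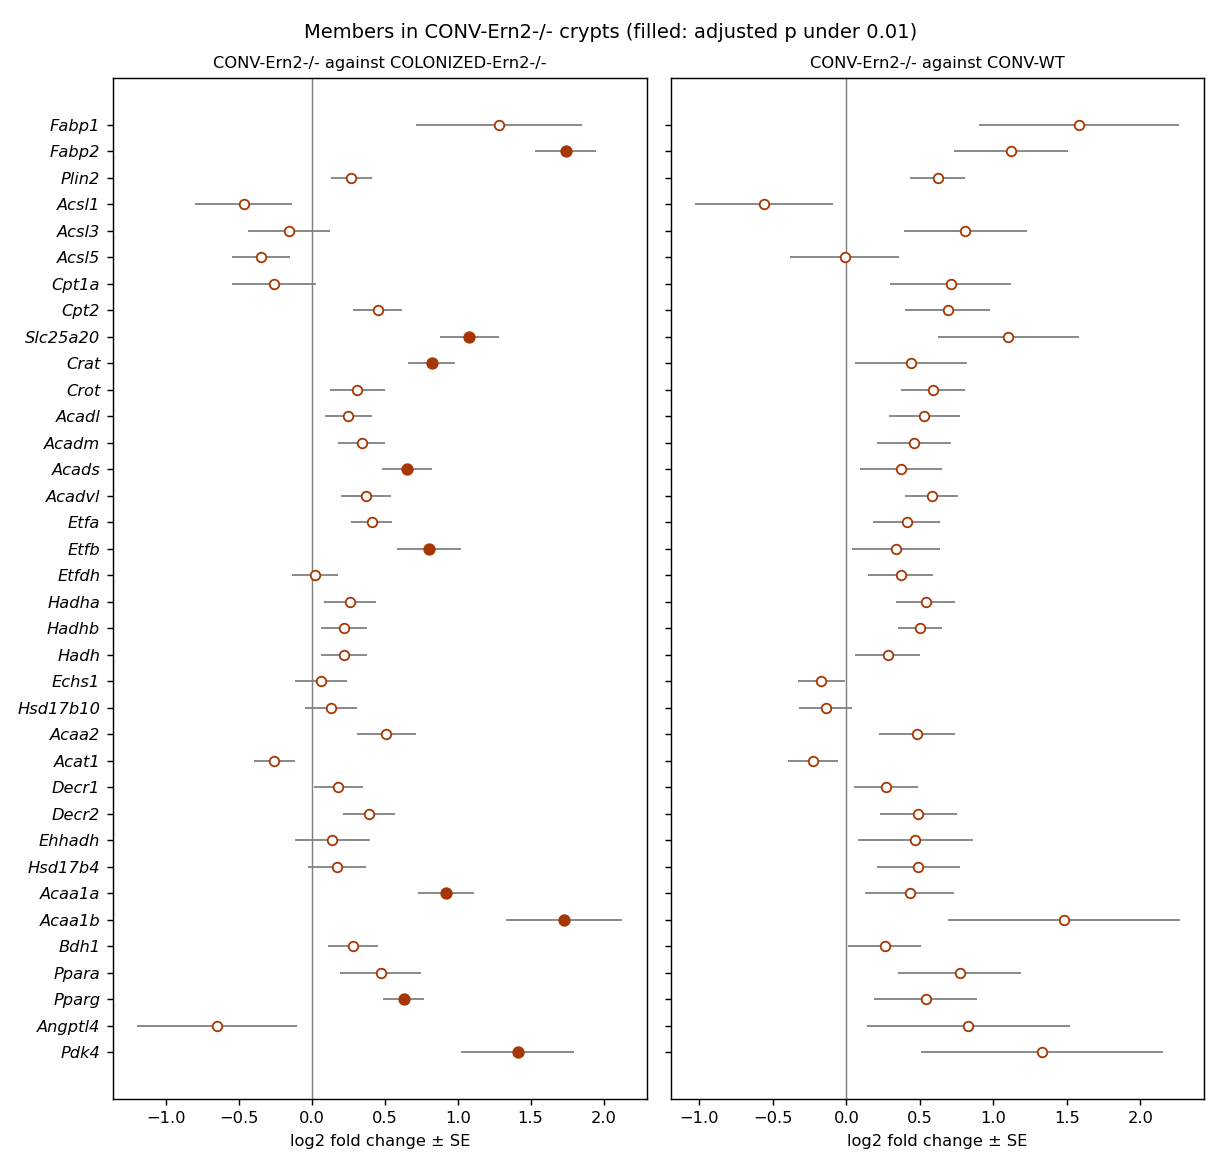
DESeq2 log2 fold change ± SE of 36 members (Cd36 left out) in CONV-Ern2-/- against COLONIZED-Ern2-/- and against CONV-WT; filled points have an adjusted p under 0.01. The former has 9 filled points, all above 0, and the latter has none although 31 of 37 estimates, Cd36 included, are positive; both share the CONV-Ern2-/- libraries.

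Among genes of binding and storage, Plin2 coats lipid droplets. Plin2 (chr4:86648386-86670060, GRCm38) was 2116, 2287 and 1793 normalized counts in GF-WT replicates 1, 2 and 3, with 1392, 1612 and 1503 for COLONIZED-WT and 1158, 1064 and 1402 for CONV-WT. The GF-WT libraries lay above all COLONIZED-WT and CONV-WT libraries. Plin2 fell in CONV-WT against GF-WT by 0.78 on the log2 scale (SE 0.20, DESeq2 adjusted p = 0.00141) and in COLONIZED-WT against GF-WT by 0.45 (SE 0.14, DESeq2 adjusted p = 0.00878). Of the fits without 1 library, the former call held only without GF-WT replicate 3 or CONV-WT replicate 3. The latter held only without GF-WT replicate 3. Plin2 levels were 2146, 2865 and 2012 in GF-Ern2-/-, with 1566, 1604 and 1478 for COLONIZED-Ern2-/- and 1930, 1782 and 1862 for CONV-Ern2-/-. There too the GF libraries were the highest. Log2 fold changes were -0.60 ± 0.20 for COLONIZED (DESeq2 adjusted p = 0.0297) and -0.34 ± 0.22 for CONV, neither called in the main DESeq2 fits. For COLONIZED, Plin2 was called lower in 1 fit of all 18 libraries.

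Fabp2, the main fatty acid carrier of absorptive cells, was named beyond the fixed rule after its values were seen. It was 12224, 16130 and 17985 in CONV-Ern2-/- replicates 1, 2 and 3 and 3977, 4418 and 5551 in COLONIZED-Ern2-/-. Every CONV-Ern2-/- library exceeded every COLONIZED-Ern2-/- library, and the log2 fold change was 1.74 ± 0.21 (DESeq2 adjusted p = 1.84e-13, edgeR adjusted p = 0.00901), called in 6 of 6 fits without 1 library. The call was lost in 1 fit of all 18 libraries. In GF-Ern2-/- Fabp2 was 3086, 33428 and 7666, with the library rich in small intestine markers the highest of all 18. Among WT libraries the levels were 2083 to 10124 in GF, 3151 to 5714 in COLONIZED and 4938 to 11201 in CONV, which overlapped. Fabp1 and Cd36 were not called in any comparison with all libraries.

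Acyl-CoA synthetases activate fatty acids. Acsl3, which acts at the endoplasmic reticulum and on lipid droplets, was 2873, 4245 and 4359 in GF-WT and 2158, 1736 and 900 in CONV-WT. The groups did not overlap, and it fell by 1.27 (SE 0.37, DESeq2 adjusted p = 0.00658). CONV-WT replicate 3 was its lowest library, in contrast with most members, and without that library the log2 fold change was -0.98. The call of Acsl3 was lost without GF-WT replicate 2 or 3 or CONV-WT replicate 2. Acsl1 ranged from 270 to 1047 and Acsl5 from 1222 to 3975 over the 18 libraries. Neither was called in any comparison with all libraries. Without CONV-Ern2-/- replicate 1, both were called lower in CONV-Ern2-/- against COLONIZED-Ern2-/-, and Acsl1 also against GF-Ern2-/-. Acsl3 shares exons on its own strand with Utp14b.

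**Figure D5:**
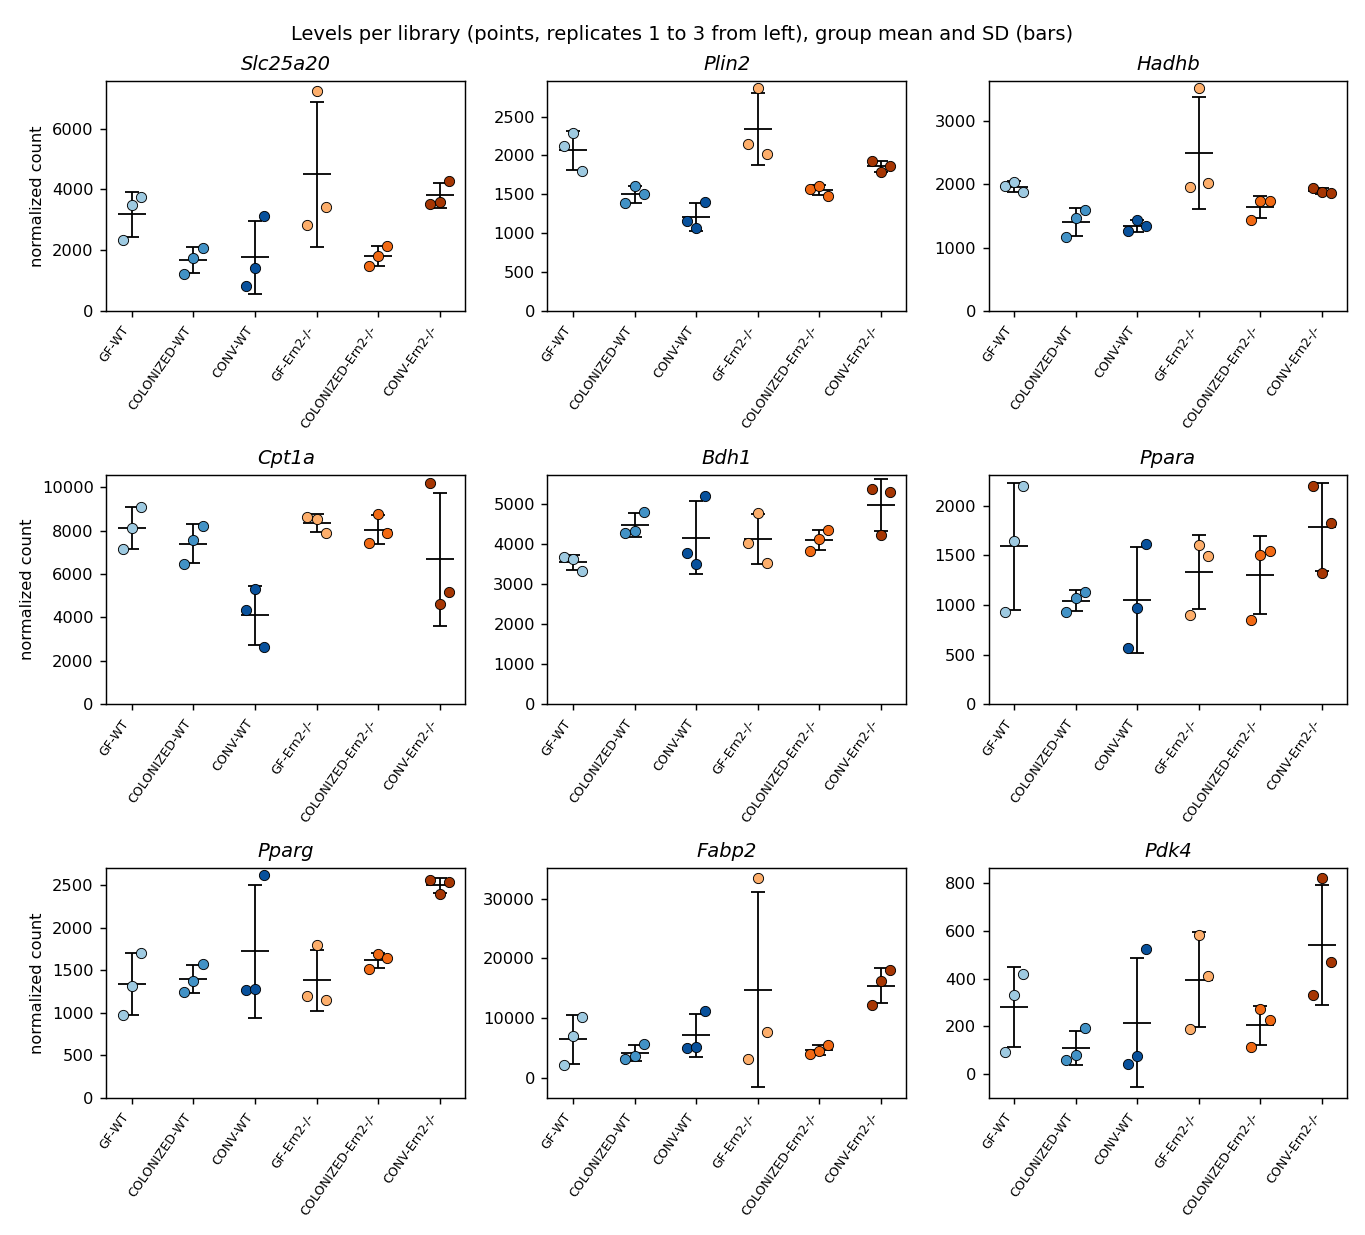
Normalized counts per library of 9 members by group, on linear axes; points are replicates 1 to 3 from left to right, the wide mark is the group mean and bars are the SD (n = 3). GF-Ern2-/- replicate 2 stands above its group for Slc25a20, Hadhb and Fabp2, and CONV-WT replicate 3 stands above its group for Slc25a20, Pparg, Fabp2 and Pdk4 and below it for Cpt1a.

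The carnitine shuttle gave the member called most often. Slc25a20 (chr9:108662088-108684641, GRCm38) encodes the carrier that exchanges acylcarnitine for carnitine across the inner mitochondrial membrane, and its promoter window is printed above. It was 2329, 3477 and 3734 in GF-WT and 1198, 1756 and 2058 in COLONIZED-WT, where it fell by 0.92 (SE 0.24, DESeq2 adjusted p = 0.00106). Of the fits without 1 library, that call held only without GF-WT replicate 1 or COLONIZED-WT replicate 3. Slc25a20 was 2825, 7233 and 3435 in GF-Ern2-/- and 1466, 1797 and 2136 in COLONIZED-Ern2-/-, where it fell by 1.33 (SE 0.35, DESeq2 adjusted p = 0.00307). In both genotype labels all GF libraries exceeded all COLONIZED libraries.

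Without GF-Ern2-/- replicate 2, at 7233 the highest of 18 libraries, the fall of Slc25a20 was 0.79 ± 0.21 (DESeq2 adjusted p = 0.00227). The call was lost without COLONIZED-Ern2-/- replicate 1, 2 or 3, where the highest DESeq2 adjusted p was 0.0508, without replicate 1. It was also lost by edgeR and in 1 fit of all 18 libraries. In CONV-Ern2-/- Slc25a20 was 3531, 3593 and 4285, above every COLONIZED-Ern2-/- library, a rise of 1.08 ± 0.20 (DESeq2 adjusted p = 3.18e-06, edgeR adjusted p = 0.0184), called in 6 of 6 fits without 1 library. This rise was not called in 1 fit of all 18 libraries. CONV-WT was divided, at 803, 1397 and 3115, with replicate 3 at the level of GF-WT. Its log2 fold change in CONV-WT against GF-WT was -0.85 ± 0.50 and in CONV-Ern2-/- against CONV-WT 1.10 ± 0.48, neither called in the main DESeq2 fits. With the replicate number as a block Slc25a20 was called in both, lower in the former and higher in the latter. It was also called in the latter with the pattern of Xist and Y-linked counts as a covariate.

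Cpt1a (chr19:3322334-3385733, GRCm38) encodes the carnitine palmitoyltransferase of the outer membrane, a rate-controlling step of long-chain oxidation. It was 7170, 8133 and 9081 in GF-WT, with 6445, 7548 and 8228 for COLONIZED-WT and 4363, 5313 and 2628 for CONV-WT. All CONV-WT libraries were below all other WT libraries, and it fell in CONV-WT against GF-WT by 1.00 (SE 0.30, DESeq2 adjusted p = 0.00915), but not past the threshold against COLONIZED-WT (-0.86 ± 0.29, DESeq2 adjusted p = 0.184). Of the fits without 1 library, the call against GF-WT held only without CONV-WT replicate 2 or 3. Among libraries labelled Ern2-/-, Cpt1a was 8615, 8553 and 7893 in GF, with 7437, 8751 and 7911 for COLONIZED and 10208, 4644 and 5185 for CONV. CONV-Ern2-/- replicate 1 was thus the highest of 18 libraries while replicates 2 and 3 were near CONV-WT. Without that library, Cpt1a was called lower in CONV-Ern2-/- against GF-Ern2-/- (-0.77) and against COLONIZED-Ern2-/- (-0.71).

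The other shuttle genes are acyltransferases named beyond the fixed rule. Crat, which handles short chains and acetyl groups, was 2047, 2184 and 2191 in CONV-Ern2-/- and 1113, 1182 and 1350 in COLONIZED-Ern2-/-. It rose without overlap by 0.82 ± 0.16 (DESeq2 adjusted p = 1.08e-05), called in 6 of 6 fits without 1 library. The call of Crat was lost by edgeR and in 1 fit of all 18 libraries. Crot, which moves chains out of peroxisomes, was 1053, 1181 and 1256 in GF-WT and 739, 698 and 791 in CONV-WT, and it fell by 0.66 (SE 0.16, DESeq2 adjusted p = 0.000546). Of the fits without 1 library, that call held only without CONV-WT replicate 3. Cpt2, the inner membrane enzyme, ranged from 1425 to 3061 and was not called with all libraries.

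Acyl-CoA dehydrogenases carry out the first step of each cycle and differ in chain length. Acadvl, for very long chains, was 4375, 5255 and 4704 in GF-WT and 3354, 3440 and 3596 in CONV-WT, and fell by 0.47 (SE 0.14, DESeq2 adjusted p = 0.00849). Acadm, for medium chains, was 3084, 3664 and 3949 in GF-WT and 2118, 2461 and 2512 in COLONIZED-WT, and fell by 0.58 (SE 0.15, DESeq2 adjusted p = 0.000866). Acads, for short chains such as butyrate, was 7777, 7699 and 9649 in CONV-Ern2-/- and 5219, 4962 and 5883 in COLONIZED-Ern2-/-, and rose by 0.65 ± 0.17 (DESeq2 adjusted p = 0.0026). In each of these pairs the groups did not overlap. Of the fits without 1 library, the call of Acadvl held only without CONV-WT replicate 3. The call of Acadm was lost without GF-WT replicate 2 or COLONIZED-WT replicate 1. The call of Acads held without CONV-Ern2-/- replicate 1 or 2. It was lost without CONV-Ern2-/- replicate 3 or any COLONIZED-Ern2-/- library, and with the pattern of Xist and Y-linked counts as a covariate. In WT, Acads was not called in either comparison with GF-WT, at 0.16 ± 0.16 for COLONIZED-WT and 0.26 ± 0.28 for CONV-WT, the latter being 0.01 ± 0.19 without CONV-WT replicate 3.

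The electron transfer flavoprotein takes the electrons of these dehydrogenases. Etfb, its beta subunit, was 3960, 4339 and 6454 in CONV-Ern2-/- and 2652, 2679 and 3153 in COLONIZED-Ern2-/-, and rose by 0.80 ± 0.22 (DESeq2 adjusted p = 0.00506), in 2 of 6 fits without 1 library. Of its 75-base stretches, 66.3% also occur in Gm45233, a gene model that overlaps its exons on the same strand and has no row in the table. The annotation used for counting is not given, so whether this overlap affected the Etfb counts cannot be told. Etfa, the alpha subunit, ranged from 2084 to 4047, and Etfdh, the oxidoreductase that hands electrons to ubiquinone, from 1568 to 2759. Acadl ranged from 2084 to 4822, and these 3 were not called in the main DESeq2 fits. Etfdh was called lower in CONV-WT against GF-WT in 1 fit of all 18 libraries. Acadl was called lower in COLONIZED-WT against GF-WT with the replicate number as a block.

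Hadha and Hadhb form the mitochondrial trifunctional protein and lie head to head on chromosome 5 (chr5:30118304-30155162 and chr5:30155248-30184593, GRCm38). Hadha was 7734, 8415 and 7751 in GF-WT and 6224, 6259 and 6187 in CONV-WT, a fall of 0.37 (SE 0.11, DESeq2 adjusted p = 0.00987) that was called in 0 of 6 fits without 1 library. Hadhb was 1973, 2046 and 1881 in GF-WT, with 1163, 1466 and 1588 for COLONIZED-WT and 1259, 1436 and 1335 for CONV-WT. It fell against GF-WT by 0.56 in CONV-WT (SE 0.13, DESeq2 adjusted p = 0.000448) and by 0.48 in COLONIZED-WT (SE 0.15, DESeq2 adjusted p = 0.00951), and the GF-WT libraries were highest in both. Of the fits without 1 library, the former call held only without CONV-WT replicate 3. The latter held only without COLONIZED-WT replicate 3.

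Among libraries labelled Ern2-/-, Hadhb was 1957, 3518 and 2016 in GF, with 1436, 1741 and 1734 for COLONIZED and 1948, 1877 and 1871 for CONV, and was not called in a comparison with GF. Its log2 fold change in COLONIZED-Ern2-/- against GF-Ern2-/- was -0.62 ± 0.27, and leaving out 1 library moved it between -0.77 and -0.27. Of its 75-base stretches 57.2% also occur in Gm13910, which has no row in the table, so its counts are uncertain. Other hydratase, dehydrogenase and thiolase genes of the later steps were not called in the main DESeq2 fits. These were Hadh (6726 to 13990), Echs1 (2392 to 5094), Hsd17b10 (1141 to 1797), Acaa2 (2279 to 5951) and Acat1 (2959 to 5083). In 1 fit of all 18 libraries, Echs1 was called lower in COLONIZED-Ern2-/- against GF-Ern2-/-, and Acat1 lower in CONV-WT against GF-WT. Acat1 was also called lower in CONV-Ern2-/- against GF-Ern2-/- in that fit, with TMM and with the mean count filter. Acat1, which also serves ketone body metabolism, had a log2 fold change of -0.64 ± 0.18 in CONV-Ern2-/- against GF-Ern2-/- (DESeq2 adjusted p = 0.0114), and of -0.70 ± 0.17 without GF-Ern2-/- replicate 2 (DESeq2 adjusted p = 0.000872).

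The auxiliary reductases Decr1 and Decr2, which prepare unsaturated chains in mitochondria and peroxisomes, ranged from 1393 to 2356 and from 874 to 1926 and were not called with all libraries. Of the peroxisomal members, the thiolases Acaa1a and Acaa1b rose in CONV-Ern2-/- against COLONIZED-Ern2-/-. Acaa1a was 1921, 1960 and 2323 against 1052, 951 and 1287, a log2 fold change of 0.92 ± 0.19 (DESeq2 adjusted p = 5.24e-05) called in 6 of 6 fits without 1 library. Acaa1b was 905, 555 and 726 against 88.3, 250 and 326, a log2 fold change of 1.73 ± 0.40 (DESeq2 adjusted p = 0.000432). These are close copies that share 27.3% and 28.5% of their 75-base stretches, so reads may be split between them. Ehhadh (836 to 3437) and Hsd17b4 (1714 to 4898), the bifunctional enzymes, were not called with all libraries.

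Bdh1 (chr16:31422280-31458901, GRCm38), which converts acetoacetate to beta-hydroxybutyrate, was among the least variable members. It was 3674, 3632 and 3328 in GF-WT, with 4272, 4314 and 4812 for COLONIZED-WT and 3765, 3502 and 5192 for CONV-WT. All COLONIZED-WT libraries were above all GF-WT libraries, with a log2 fold change of 0.34 ± 0.12 that missed the threshold (DESeq2 adjusted p = 0.0147). It was 4034, 4781 and 3537 in GF-Ern2-/-, with 3838, 4115 and 4347 for COLONIZED-Ern2-/- and 5386, 4215 and 5295 for CONV-Ern2-/-, which overlapped. Bdh1 was not called in any of the main DESeq2 fits. With the mean count filter it was called higher in COLONIZED-WT against GF-WT.

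Of the receptors, Ppara (chr15:85734983-85802819, GRCm38) was 929, 1641 and 2200 in GF-WT, with 924, 1074 and 1135 for COLONIZED-WT and 564, 965 and 1616 for CONV-WT. It was 903, 1604 and 1490 in GF-Ern2-/-, with 848, 1505 and 1547 for COLONIZED-Ern2-/- and 2201, 1324 and 1829 for CONV-Ern2-/-. No comparison was called with all libraries, and the log2 fold changes ran from -0.61 ± 0.47 in CONV-WT against GF-WT to 0.77 ± 0.42 in CONV-Ern2-/- against CONV-WT. Single libraries moved these values. Without CONV-WT replicate 3 they were -1.06 ± 0.37 (DESeq2 adjusted p = 0.0185) and 1.23 ± 0.32, the latter called (DESeq2 adjusted p = 0.00184). Without GF-WT replicate 1, Ppara was called lower in COLONIZED-WT against GF-WT at -0.88, where it was -0.60 ± 0.27 with all libraries.

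Pparg (chr6:115360951-115490399, GRCm38) was 2560, 2393 and 2538 in CONV-Ern2-/-, 1519, 1689 and 1646 in COLONIZED-Ern2-/- and 1201, 1791 and 1148 in GF-Ern2-/-. CONV-Ern2-/- was above both other groups without overlap. The rise against COLONIZED-Ern2-/- was 0.63 ± 0.14 (DESeq2 adjusted p = 0.00036). That call was lost with the replicate number as a block, with the pattern of Xist and Y-linked counts and in 1 fit of all 18 libraries. It was also lost without COLONIZED-Ern2-/- replicate 1 or 3. Against GF-Ern2-/- the log2 fold change was 0.85 ± 0.24, just short of the threshold (DESeq2 adjusted p = 0.0108), and Pparg was called with the mean count filter. In WT it was 979, 1316 and 1707 in GF, with 1243, 1368 and 1574 for COLONIZED and 1265, 1280 and 2619 for CONV. CONV-WT replicate 3 thus reached the level of CONV-Ern2-/-. Without it, Pparg was higher in CONV-Ern2-/- than in CONV-WT by 0.97 ± 0.16 (DESeq2 adjusted p = 1.48e-07).

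Pdk4, a kinase that restrains pyruvate use when fatty acids are burnt, was 332, 820 and 469 in CONV-Ern2-/- and 112, 273 and 228 in COLONIZED-Ern2-/-, and rose by 1.41 ± 0.39 (DESeq2 adjusted p = 0.00422), in 2 of 6 fits without 1 library. In CONV-WT it was 43.4, 75.1 and 526, with replicate 3 again apart. Angptl4 was not called in any comparison with all libraries, and its highest library was GF-Ern2-/- replicate 2. It was called lower in COLONIZED-WT against GF-WT without GF-WT replicate 1. Without COLONIZED-Ern2-/- replicate 1 it was called higher in COLONIZED-Ern2-/- against COLONIZED-WT.

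Other genes of these pathways were taken from a list of 75 genes present in the table. In COLONIZED-WT against GF-WT, 4 rose and 12 fell by DESeq2 (5.33% and 16% of the list, against 9.35% and 8.97% of all genes). In CONV-WT against GF-WT, 2 rose and 5 fell (2.67% and 6.67%, against 5.68% and 5.28% of all genes), so that the share that fell was near that of all genes. Ppargc1a, a coactivator of the PPARs, was 1337, 1306 and 1397 in GF-WT, with 482, 533 and 504 for COLONIZED-WT and 402, 408 and 736 for CONV-WT. It fell by 1.40 in each comparison, with an SE of 0.12 for COLONIZED-WT (DESeq2 adjusted p = 3.84e-27) and 0.30 for CONV-WT (DESeq2 adjusted p = 7.43e-05). Ffar2, a receptor for short-chain fatty acids, rose by 1.33 ± 0.28 in COLONIZED-WT and 1.85 ± 0.35 in CONV-WT. Of the ketone body genes, Oxct1, which uses ketone bodies, fell by 0.59 in COLONIZED-WT (SE 0.15, DESeq2 adjusted p = 0.000699).

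Taking from each list the called gene of largest change, those that fell in COLONIZED-WT against GF-WT included Hacl1, a peroxisomal lyase of branched chains, at -0.89 ± 0.21, Acad12 at -1.01 ± 0.20 and Slc16a3, a lactate transporter, at -2.35 ± 0.62. Slc16a3 was 25.4, 45.5 and 167 in GF-WT and 16.4, 20.6 and 9.53 in COLONIZED-WT, with GF-WT replicate 3 far above the others. Acot1, an acyl-CoA thioesterase, rose by 0.90 ± 0.28 and Gpd1 by 0.75 ± 0.21. In CONV-WT against GF-WT those that fell were Acox3 at -0.82 ± 0.19, Acad10 at -1.20 ± 0.31 and Creb3l3, a transcription factor of lipid metabolism, at -3.18 ± 0.95, and Pdk3 rose by 0.75 ± 0.20. Creb3l3 was 18.4, 87.6 and 248 in GF-WT and 5.66, 5.93 and 29.2 in CONV-WT, so the libraries of each group were widely spread and groups overlapped.

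In COLONIZED-Ern2-/- against GF-Ern2-/-, 1 rose and 9 fell (1.33% and 12% of the list, against 3.60% and 3.57% of all genes). Log2 fold changes were -0.72 ± 0.20 for Oxct1, -1.30 ± 0.26 for Hacl1 and -1.30 ± 0.32 for Acad12, and Ffar3 rose by 1.75 ± 0.45. Cyp4a10, a PPARα target, was called lower, but its levels were 2.24, 40.1 and 4.17 in GF-Ern2-/- and 0 in each COLONIZED-Ern2-/- library, so no fold is given. Against GF-Ern2-/-, CONV-Ern2-/- had 2 that rose, Ffar3 by 2.48 ± 0.44 and Mgll by 1.66 ± 0.47, and 2 fell, with Acss2 at -1.28 ± 0.26 the larger. These are 2.67% of the list in each direction, against 1.57% and 2.77% of all genes.

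In CONV-Ern2-/- against COLONIZED-Ern2-/-, 12 rose and 3 fell (16% and 4% of the list, against 4.86% and 3.73% of all genes). Creb3l3 was 102, 88.9 and 96.6 against 14.2, 24.3 and 25.1, and rose by 2.21 ± 0.37 (DESeq2 adjusted p = 2.91e-07). Acad12 rose by 1.05 ± 0.27, while Acsm3, a medium-chain acyl-CoA synthetase, fell by 1.34 (SE 0.39). Against CONV-WT, 2 rose and 2 fell in CONV-Ern2-/- (2.67% each, against 1.08% and 1.96% of all genes). Ffar2 was 180, 209 and 157 against 787, 1195 and 950 and fell by 2.42 (SE 0.26, DESeq2 adjusted p = 5.66e-16). Hilpda fell by 1.71 (SE 0.45), and Creb3l3 and the monocarboxylate transporter Slc16a1 rose by 2.92 ± 0.65 and 1.46 ± 0.40. In COLONIZED-Ern2-/- against COLONIZED-WT only Ffar2 was called, at -0.80 ± 0.20, which is 1.33% of the list against 0.853% of all genes that fell.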

How the data were processed

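Stranded mRNA libraries of colon crypts were sequenced with 75-cycle single-end reads. The authors processed them with VIPER and STAR on mm10, per the labels, and deposited raw counts per gene symbol; annotation, strand setting and tool versions are not given in the sources used here. Genes that overlap on opposite strands were therefore kept with that limit (Acadvl with Dvl2, Crat with Dolpp1, Acaa1a with Myd88, Hadha with Garem2, Echs1 with Paox, Acsl5 with Zdhhc6).

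DESeq2 1.42.0 (R 4.3.3, Wald statistic, default size factors and filtering, unshrunken fold changes) was run separately for 9 comparisons of 6 libraries and 2 interactions of 12 libraries. These were the main fits. Calls needed an adjusted p (Benjamini-Hochberg, all genes) under 0.01, the threshold of the study. The fits were also run on independent counts simulated from the dispersions that DESeq2 had fitted. No outlier library or shift in cell makeup was simulated, so that run cannot show how the fits behave with such libraries. Levels are counts divided by size factors over 18 libraries. Library totals are in the report and limit low genes most. Alternatives were edgeR 4.0.16, TMM, a mean count of at least 10, 1 fit of 18 libraries, the replicate number, the pattern of Xist and Y-linked counts, and each library left out. Another alternative, without the libraries labelled Ern2-/- that had Ern2 at the WT level, was added after seeing the data.

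Members and lists were chosen with earlier results of these data known. Values in every library were planned for Bdh1, Cpt1a, Ppara, Pparg and members called in at least 2 comparisons (Slc25a20, Plin2 and Hadhb); those of other called members were added after their values were seen. Of the other pathway genes, the called gene of largest change in each direction of each list is named, except for some that are not reported here. Gene positions and shared 75-base stretches came from GENCODE vM21.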

Additional observations from a re-analysis of the deposited data

How the results depend on the processing

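No call reversed direction under any alternative run. Of the 21 calls of members, 1 was also called by edgeR, 17 with TMM, 21 with the mean count filter, 5 in 1 fit of all 18 libraries and 7 with the pattern of Xist and Y-linked counts as a covariate, and 60 of 126 held in fits without 1 library. That pattern differed between groups (0 of 3 libraries Y-linked in GF-WT, 3 of 3 in CONV-Ern2-/-), so sex and group cannot be fully told apart.

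Counts of members called were as follows, with the share of all genes called in the same fit in parentheses. In CONV-WT against GF-WT the count of 7 became 0 by edgeR (0.175%) and 1 with the sex pattern (6.64%), and ran from 0 to 14 without 1 library. In COLONIZED-WT against GF-WT the count of 4 became 0 by edgeR (4.94%), in 1 fit of all libraries (8.98%) and with the sex pattern (1.92%). It became 2 with TMM (17.4%), and ran from 0 to 9 without 1 library. With the mean count filter (20.0%) there were 4 lower and 1 higher, Bdh1. In CONV-Ern2-/- against GF-Ern2-/- the count of 0 became 1 with TMM (4.44%) and in 1 fit (6.68%), and 2 with the mean count filter (4.72%), and ran from 0 to 5. In COLONIZED-Ern2-/- against GF-Ern2-/- the count of 1, Slc25a20, became 0 by edgeR (0.216%) and ran from 0 to 3 without 1 library. In 1 fit (8.52%) the count was 2, Plin2 and Echs1, and Slc25a20 was not called. In CONV-WT against COLONIZED-WT it ran from 0 to 2. In CONV-Ern2-/- against COLONIZED-Ern2-/- the count of 9 became 1 by edgeR (0.282%), Fabp2, and 1 in 1 fit (3.32%), Acaa1a. It became 5 with the sex pattern (4.76%), and ran from 5 to 11 without 1 library. In CONV-Ern2-/- against CONV-WT the count of 0 became 3 in 1 fit (4.97%) and with the sex pattern (1.88%), and ran from 0 to 15. It ran from 0 to 1 in GF-Ern2-/- against GF-WT and from 0 to 2 in COLONIZED-Ern2-/- against COLONIZED-WT. Without the libraries labelled Ern2-/- with Ern2 at the WT level, an alternative chosen after seeing the data, counts were 2 lower in CONV-Ern2-/- against GF-Ern2-/- (1.18% of all genes fell), 12 lower in COLONIZED-Ern2-/- against GF-Ern2-/- (5.56% fell), 4 higher in GF-Ern2-/- against GF-WT (1.64% rose) and 2 lower for the COLONIZED interaction (1.06% fell). GF-Ern2-/- is then replicate 2 alone, the library with high surface colonocyte and small intestine sums that is highest for 23 of 36 members, and it is assumed to vary like the other groups. The cause was not tested.

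The labels do not say that replicate numbers pair the samples, and 13 of 27 same-numbered pairs had a correlation of deviations over 0.1. With the replicate number as a block, the count was 3 in CONV-WT against GF-WT (9.40% of all genes), namely Acsl3, Cpt1a and Slc25a20. Counts were 8 in COLONIZED-WT against GF-WT (16.3%) and 2 in COLONIZED-Ern2-/- against GF-Ern2-/- (7.20%). In CONV-Ern2-/- against CONV-WT the count was 4 (3.37%), with Fabp2, Slc25a20, Acaa1b and Pdk4 higher. In CONV-Ern2-/- against COLONIZED-Ern2-/- it was 8 (7.35%), with Pparg lost. Over the 9 comparisons of 6 libraries, libraries correlated best with their own number in 27 of 54 cases. No value for unpaired samples was computed, so these figures do not settle whether the numbers mark pairs. Scaling to library totals (CPM) shifted the median of all genes by 0.13 in COLONIZED-Ern2-/- against GF-Ern2-/- and by -0.16 in CONV-Ern2-/- against COLONIZED-Ern2-/-. Depth limits Cd36, Fabp1 and Angptl4 most.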
